A study of Mus musculus with 16 samples.

Results

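The mouse placenta expresses several expanded gene families, some of whose members are also used in other tissues. Among the 31663 entries of the expression table, 78 symbols belonged to these families by name: 25 prolactins of the Prl2 to Prl8 subfamilies, 13 pregnancy-specific glycoproteins (Psg), 15 genes of the carcinoembryonic antigen cell adhesion family (Ceacam), 23 cathepsins and the trophoblast-specific proteins Tpbpa and Tpbpb. The cathepsins were divided by name into 9 placental members and 14 others, which are lysosomal or immune proteases found in many tissues. The members were taken by symbol alone, though with earlier results of these data known, and were read across all 8 groups of the study. Of the 64 members outside the 14 general cathepsins, 39 were listed at 0 in all 16 libraries, and 5 reached 1 FPKM in any library.

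In the mouse, trophoblast stem cells give rise to the trophoblast giant cells, the spongiotrophoblast, the glycogen cells and the syncytiotrophoblast. Giant cells and spongiotrophoblast are the endocrine cells of the placenta, and the placental prolactins and Psg proteins are their main secreted products. Placental cathepsins are a rodent-specific group of cysteine proteases made by trophoblast, and Tpbpa marks the ectoplacental cone and the spongiotrophoblast that forms from it. High levels of these families are therefore used as signs of terminal trophoblast differentiation.

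Each of the 8 groups had 2 mouse libraries, each prepared from 1 picked colony or part with the Smart-seq2 protocol, which amplifies full-length cDNA from very little RNA. Trophectoderm stem cells (TSC, carrying RFP) and induced pluripotent stem cells (iPSC, carrying GFP) were combined and built joint structures having a red and a green part, or each was grown alone, always on 5% Matrigel and in medium containing 12.5 ng/ml FGF4 plus 500 ng/ml heparin. During the final 24 hours before collection on day 3 the medium held BMP4 or not; the labels state no dose. The groups were the assembled TSC part with BMP4, the assembled TSC part, TSC alone with BMP4, TSC alone, the assembled iPSC part treated with BMP4, the assembled iPSC part, iPSC alone with BMP4 and iPSC alone. The medium with FGF4 and heparin, which is used to keep trophoblast stem cells undifferentiated, was thus shared by every group, and the parts of a structure were separated by hand. No placenta or sorted giant cell library was analysed here, so the levels of these genes in differentiated trophoblast cannot be set beside the values.

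The labels were checked against cell type markers. The summed level of 9 trophoblast markers was 544 to 6221 FPKM in the 8 libraries of TSC origin and 124 to 781 FPKM in the 8 libraries of iPSC origin, while that of 8 pluripotency markers was 178 to 1106 FPKM against 943 to 3860 FPKM. Few genes made up much of these sums. Utf1 gave 724 of the 751 FPKM of pluripotency markers in replicate 1 of the assembled TSC part. Krt8 and Krt18 stood at 2932 and 2947 FPKM in replicate 1 of TSC alone, whose trophoblast sum was 6221 FPKM. Pou5f1, Nanog, Tdgf1 and Otx2 were higher in every library of iPSC origin than in any of TSC origin. The ranges of Utf1, Zfp42, Dppa5a and Fgf5 overlapped between the origins. Eomes and Esrrb, which mark trophoblast stem cells, stayed under 0.25 FPKM in both libraries of TSC alone, against 11.2 to 33.8 FPKM for Eomes in the assembled TSC libraries. Some libraries held genes of the other lineage. Replicate 2 of the assembled TSC part had 13.2 FPKM of Pou5f1, against 2.33 FPKM in replicate 1, and replicate 2 of the BMP4-treated assembled iPSC part had 149 FPKM of Hand1, against 10.4 FPKM in replicate 1. In that iPSC part Elf5 (50.4 against 0.193 FPKM), Esrrb, Eomes and Krt18 were also higher in replicate 2. Krt8 (324 against 107 FPKM), Gata3 (12.5 against 6.02 FPKM), Cdx2 and Tfap2c were higher in replicate 1. Its trophoblast sums were 542 FPKM in replicate 1 and 585 FPKM in replicate 2. Replicate 2 of iPSC alone with BMP4 had the highest trophoblast sum of the iPSC libraries, 781 FPKM against 322 FPKM in replicate 1, with 16.8 FPKM of Hand1 and 11.2 FPKM of Gata2 against 2.78 and 2.86 FPKM. Krt18 and Krt8 made up most of that sum, at 415 and 320 FPKM, and Elf5 and Esrrb stood at 0.283 and 0.415 FPKM. Markers of endoderm summed to 2.59 to 14.3 FPKM and those of fibroblasts to 1.43 to 5.70 FPKM, with Ttr and Apoa4 listed at 0 throughout.

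Members of the prolactin family are so alike that short reads cannot always be assigned to a single gene. The 2 prolactins with the highest values, Prl2c2 and Prl2c3, and their relative Prl2c5 are shown here because of this likeness. These are the 150 coding bases that begin at the start codon, from the GENCODE vM21 transcripts (chromosome 13), with capitals where a base differs from Prl2c2.
Prl2c2: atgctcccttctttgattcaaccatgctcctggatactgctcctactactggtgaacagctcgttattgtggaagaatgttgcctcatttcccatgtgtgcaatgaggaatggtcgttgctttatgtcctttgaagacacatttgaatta
Prl2c3: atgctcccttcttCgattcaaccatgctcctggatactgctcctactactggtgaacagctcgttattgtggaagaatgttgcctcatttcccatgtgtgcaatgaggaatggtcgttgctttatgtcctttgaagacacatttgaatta
Prl2c5: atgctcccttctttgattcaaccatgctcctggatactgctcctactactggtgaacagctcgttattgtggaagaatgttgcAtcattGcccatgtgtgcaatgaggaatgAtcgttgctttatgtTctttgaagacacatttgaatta
Prl2c3 was identical to Prl2c2 at 149 of the 150 bases and Prl2c5 at 146. Of all stretches of 50 bases in the annotated transcripts of Prl2c2, 83.3% occurred in the transcript of another gene, as did 60.0% of those of Prl2c3 and 35.1% of those of Prl2c5. Prl3d1, Prl3d2 and Prl3d3, the 3 copies of placental lactogen I, shared 55.6%, 68.2% and 67.5%. Prl3b1, Prl4a1 and Prl5a1 shared none.

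In mouse trophoblast, GATA factors and AP-1 are known to act on the promoters of placental lactogen I and of the proliferins. The promoters of Prl3d1, Prl2c3, Prl2c5 and Prl6a1 are given because Gata2, Gata3 and AP-1 genes were measured in the same libraries. They run from 250 bases before to 50 after the gene start (RefSeq, build GRCm38.p6) and stand on the strand of the gene, at chr13:27093939-27094238 (plus), chr13:12800030-12800329 (minus), chr13:13182466-13182765 (plus) and chr13:27312365-27312664 (plus). Capitals mark the AP-1 motif TGANTCA, the GATA motif (AGATAA or TGATAA, either also with G as its last letter) and the TATA motif TATATA, searched on both strands; overlapping TATA matches were joined.
Prl3d1: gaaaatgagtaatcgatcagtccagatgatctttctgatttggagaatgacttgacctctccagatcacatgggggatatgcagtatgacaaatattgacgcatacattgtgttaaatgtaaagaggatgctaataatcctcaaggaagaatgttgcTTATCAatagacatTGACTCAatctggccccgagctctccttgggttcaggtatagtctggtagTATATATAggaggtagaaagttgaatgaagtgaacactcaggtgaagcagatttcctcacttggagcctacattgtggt
Prl2c3: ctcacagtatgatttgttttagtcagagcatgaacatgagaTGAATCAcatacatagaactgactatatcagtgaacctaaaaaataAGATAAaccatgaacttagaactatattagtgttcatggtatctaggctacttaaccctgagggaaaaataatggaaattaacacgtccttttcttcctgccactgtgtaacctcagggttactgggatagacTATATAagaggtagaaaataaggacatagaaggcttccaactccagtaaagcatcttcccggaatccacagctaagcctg
Prl2c5: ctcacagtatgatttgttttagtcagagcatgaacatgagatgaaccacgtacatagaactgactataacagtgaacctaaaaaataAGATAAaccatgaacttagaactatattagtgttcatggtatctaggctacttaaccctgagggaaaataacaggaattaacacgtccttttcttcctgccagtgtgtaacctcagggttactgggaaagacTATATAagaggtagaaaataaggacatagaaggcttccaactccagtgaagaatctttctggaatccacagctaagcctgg
Prl6a1: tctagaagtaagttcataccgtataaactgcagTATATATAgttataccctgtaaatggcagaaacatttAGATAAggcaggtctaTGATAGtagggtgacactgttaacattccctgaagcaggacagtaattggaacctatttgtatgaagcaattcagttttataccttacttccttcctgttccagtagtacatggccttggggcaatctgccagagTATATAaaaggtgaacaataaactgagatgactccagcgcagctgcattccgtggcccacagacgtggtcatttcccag
Among 27025 promoters of the same length, 7.93% held the AP-1 motif, 30.2% a GATA motif and 5.94% the TATA motif. Of the 21 prolactins with an entry, 9 held the AP-1 motif, 14 a GATA motif and 19 the TATA motif. Prl3d1 held all of them, with the AP-1 match beginning 79 bases before the start. The Prl2c3 and Prl2c5 windows were 95.3% identical, and the AP-1 match of Prl2c3 was not present in that of Prl2c5. These matches describe the letters only.

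Prolactins were almost absent from the table. Of 25 prolactins, 22 were listed at 0 in all 16 libraries, a share of 88.0%, against 28.8% of all entries and 10.2% of the 19642 entries that GENCODE names as protein coding. Prl3d1, which encodes placental lactogen I, the early hormone of giant cells, was listed at 0 in every library of all 8 groups. So were Prl3b1, which encodes placental lactogen II of later pregnancy, Prl4a1 and Prl5a1, which encode prolactin-like proteins, and Prl8a9, of the prolactin-like protein C group. Since depth is unknown for FPKM, no upper limit can be put on these zeros, and 16 other entries with a median of at least 50 FPKM fell under 0.01 FPKM in some library, most of them small RNAs or predicted genes.

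Prl2c2, a proliferin gene, stood at 4.41 FPKM in replicate 1 of TSC alone and was listed at 0 in replicate 2 and in the other 14 libraries. Prl2c3, a second proliferin gene, stood at 8.24 FPKM in the same library and was likewise listed at 0 in all others. These were the highest values of any placental family member, and they came from a single library of a group whose other library showed none. The level of the pair cannot be divided between its genes with confidence, given the shared sequence above.

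Prl6a1, which encodes prolactin-like protein B, was the single prolactin above 0 in more than 1 library. It stood at 0.713 and 2.46 FPKM in the assembled TSC part with BMP4 and was listed at 0 in the other 14 libraries. Both libraries of that group were thus above all others, but the gene passed 1 FPKM in 1 library only and was not tested. A processed pseudogene, Gm11357, overlaps Prl6a1 on the same strand, and 9.37% of the 50-base stretches of Prl6a1 occur in it. It was listed at 0 in all 16 libraries.

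**Figure D1:**
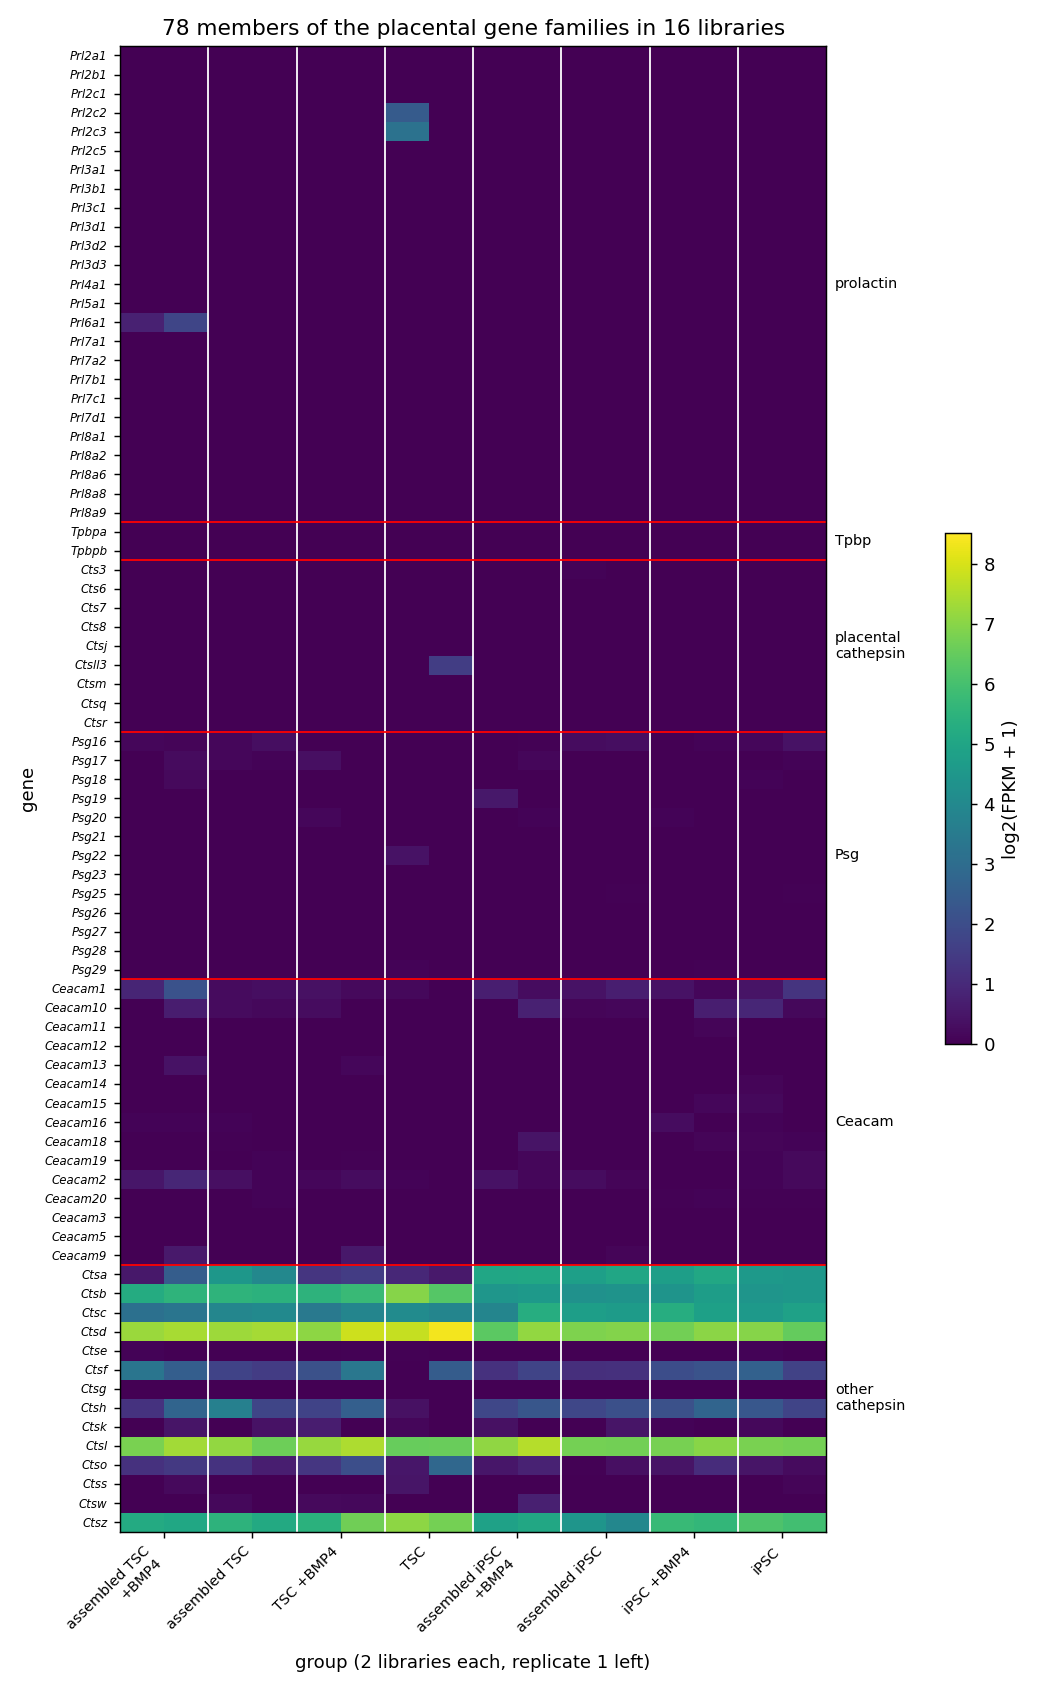
Level of each of the 78 members (rows, grouped by family) in the 16 libraries (columns, 2 for each group, replicate 1 left), as log2(FPKM + 1) on a colour scale. The prolactin, Tpbp and placental cathepsin rows are dark but for Prl2c2, Prl2c3, Prl6a1 and Ctsll3, while general cathepsins such as Ctsd and Ctsl are bright in every library.

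Tpbpa and Tpbpb, the secreted proteins of spongiotrophoblast, were listed at 0 in all 16 libraries. Of 9 placental cathepsins, 7 were listed at 0 throughout. They included Ctsq and Cts7, which giant cells of the mouse placenta express. Ctsll3 stood at 1.92 FPKM in replicate 2 of TSC alone and was listed at 0 in the other 15 libraries. Cts3 stood at 0.0582 FPKM in replicate 1 of the assembled iPSC part and was listed at 0 elsewhere. The placental cathepsins thus crossed 1 FPKM in 1 library, and not in the library where the proliferins did.

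Psg genes encode secreted glycoproteins of the immunoglobulin superfamily that signal to maternal cells. Of 13 Psg genes, 5 were listed at 0 in all libraries and none reached 0.5 FPKM in any. Psg21, an abundant Psg of the mouse placenta, was at 0 in all 16 libraries. Psg17 was above 0 in 6 libraries, with 0.197 FPKM in replicate 2 of the assembled TSC part with BMP4, 0.118 and 0.0648 FPKM in the assembled TSC part, 0.278 FPKM in replicate 1 of TSC alone with BMP4, 0.120 FPKM in replicate 2 of the BMP4-treated assembled iPSC part and 0.0532 FPKM in replicate 2 of iPSC alone. Both lineages were among these libraries, and no group had Psg17 in its 2 libraries other than the assembled TSC part. The highest Psg value was 0.448 FPKM, for Psg19 in replicate 1 of the BMP4-treated assembled iPSC part, its single value above 0. Psg16 was above 0 in the most libraries, 12, at 0.339 FPKM or less.

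The Ceacam family was detected more often than the other placental families, at low levels. Its genes were not divided into placental and general members as the cathepsins were. Ceacam1, Ceacam2 and Ceacam10 were above 0 in 15, 13 and 10 libraries, and no other Ceacam in more than 8. Of 15 genes, 12 were above 0 in some library, and 1, Ceacam1, reached 1 FPKM. Ceacam9 was seen in replicate 2 of the assembled TSC part with BMP4 (0.480 FPKM), replicate 2 of TSC alone with BMP4 (0.449 FPKM) and replicate 2 of the assembled iPSC part (0.0771 FPKM), and was listed at 0 in the other 13. Ceacam11 was above 0 in 1 library, replicate 2 of iPSC alone with BMP4, at 0.0801 FPKM. Both genes are known from mouse trophoblast, and neither separated the libraries of TSC origin from those of iPSC origin.

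Ceacam1, a cell adhesion receptor found in many epithelia, was the only placental family member with enough signal to test. It stood at 0.834 and 3.45 FPKM in the assembled TSC part with BMP4, 0.200 and 0.231 FPKM in the assembled TSC part, 0.294 and 0.162 FPKM in TSC alone with BMP4, and 0.132 and 0 FPKM in TSC alone. In iPSC it stood at 0.648 and 0.211 FPKM in the assembled part with BMP4, 0.343 and 0.625 FPKM in the assembled part, 0.334 and 0.112 FPKM in iPSC alone with BMP4, and 0.375 and 1.40 FPKM in iPSC alone. Both libraries of the assembled TSC part with BMP4 were above every other library but replicate 2 of iPSC alone. None of the differences passed. They were 1.23 ± 0.38 on the log2(FPKM + 1) scale against the assembled TSC part (limma adjusted p = 0.244), 1.22 ± 0.38 against TSC alone with BMP4 (limma adjusted p = 0.175) and 1.02 ± 0.38 against the assembled iPSC part with BMP4 (limma adjusted p = 0.117). The third passed without replicate 1 of the assembled TSC part with BMP4 (1.66, limma adjusted p = 0.0331). Of the 50-base stretches of Ceacam1, 29.6% occur in Ceacam2, which stood at 0.416 and 0.870 FPKM in the same group.

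Across all placental families, 918 of 1024 values were 0 and 6 were at least 1 FPKM. Those 6 came from TSC alone (Prl2c2 and Prl2c3 in replicate 1, Ctsll3 in replicate 2), the assembled TSC part with BMP4 (Prl6a1 and Ceacam1 in replicate 2) and iPSC alone (Ceacam1 in replicate 2). Fewer cells that express a gene and less RNA per cell cannot be told apart in such colony libraries.

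**Figure D2:**
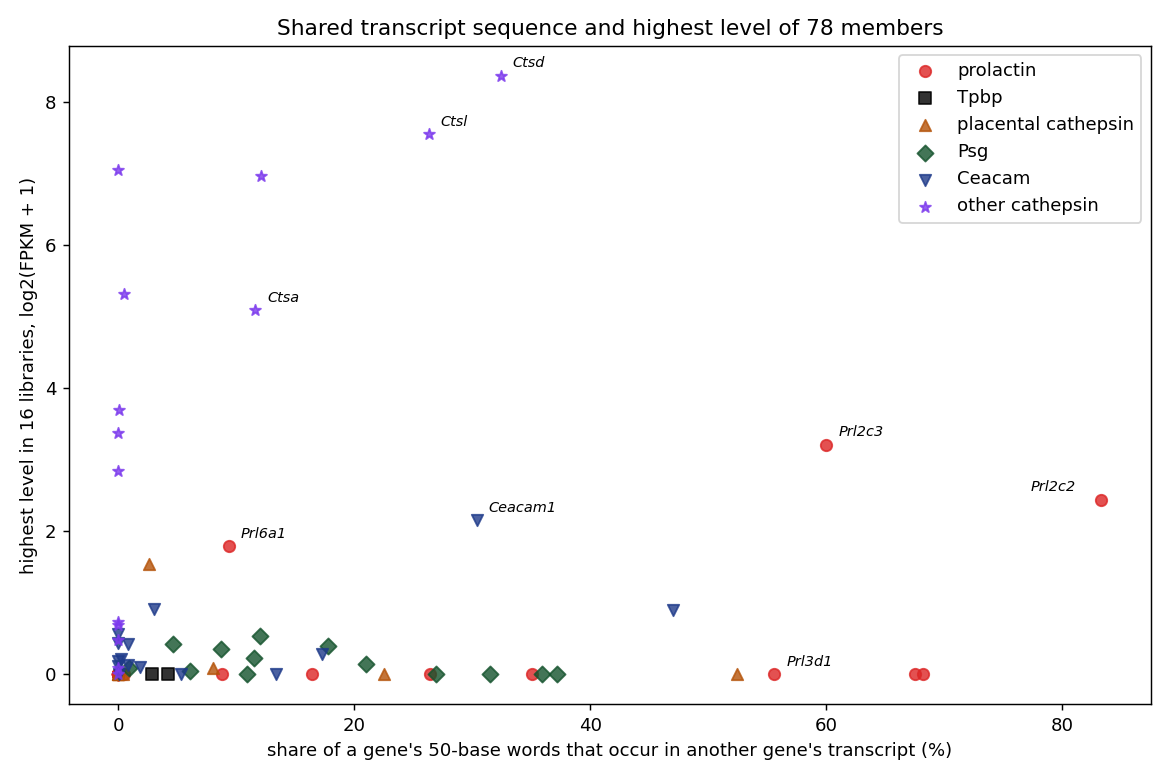
Share of the 50-base stretches of each member that also occur in a transcript of another gene (x axis, percent) against its highest level in the 16 libraries (y axis, log2(FPKM + 1)), 1 point per member. Prl2c2 and Prl2c3 lie far right at 83.3% and 60.0%, while Ctsd, at 32.4%, has the highest level.

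The zeros of the prolactins stood beside high levels of genes known to act upstream of them. Hand1, the factor that drives giant cell formation, stood at 103 and 143 FPKM in the assembled TSC part with BMP4, 438.0 and 341 FPKM in the assembled TSC part, 301 and 211 FPKM in TSC alone with BMP4, and 149.6 and 288 FPKM in TSC alone. It was under 17 FPKM in the 8 libraries of iPSC origin, with the exception of the 149 FPKM given above. Gata2 stood at 1.14 and 10.8 FPKM in the assembled TSC part with BMP4, 5.75 and 8.25 FPKM in the assembled TSC part, 14.5 and 26.9 FPKM in TSC alone with BMP4, and 97.8 and 67.2 FPKM in TSC alone, so that TSC alone was above all others. Gata3 was highest in TSC alone too, at 47.0 and 34.3 FPKM, against 8.55 to 17.7 FPKM in the other 6 libraries of TSC origin. The AP-1 gene Fosl1 ran the other way, with 0.263 and 0 FPKM in TSC alone and 4.36 to 11.5 FPKM in those 6 libraries. Other AP-1 genes were present in TSC alone: Jun stood at 5.86 and 37.4 FPKM there and at 1.60 to 9.67 FPKM in those 6 libraries, and Junb at 17.2 and 25.6 FPKM there and at 7.35 to 44.9 FPKM in those 6. Prl3d1, whose promoter holds both motifs, was at 0 in each.

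Lists of genes of the trophoblast lineages, chosen with earlier results of these data known, were read for the stage markers that accompanied this. Of 12 tested regulators and partners of giant cell differentiation, 7 were higher and 2 lower in TSC alone than in iPSC alone (limma, adjusted p under 0.05), with a median difference of 2.11 against -0.11 for all genes tested; 36.4% of all genes passed in that comparison. Of 11 tested spongiotrophoblast and glycogen cell genes, 6 were higher and 2 lower, with a median of 4.06. Among these, Phlda2, an imprinted restrainer of spongiotrophoblast growth, stood at 6773 and 4650 FPKM in TSC alone against 73.3 and 37.0 FPKM in iPSC alone (6.72 ± 0.78, limma adjusted p = 5.94e-05). Ascl2, which the spongiotrophoblast needs, stood at 45.3 and 114 FPKM against 1.87 and 0.944 FPKM (4.95 ± 0.67, limma adjusted p = 0.000159). The 2 lower genes of this list were Arnt2 and Flt1. Flt1 stood at 0.025 and 2.195 FPKM in TSC alone against 6.9 and 7.92 FPKM in iPSC alone (-2.21 ± 0.63, limma adjusted p = 0.0156). TSC alone therefore held Phlda2 and Ascl2 at high levels with the Tpbp genes at 0.

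The same lists were compared between the assembled TSC part and TSC alone. Most trophoblast stem cell genes passed there, and most genes of the giant cell, the spongiotrophoblast and glycogen cell, and the endocycle lists did not. Of the 12 giant cell genes, 1 was higher (Fosl1) and 4 lower (Gata2, Gata3, Plac1 and Prlr), with a median of -0.92; 19.2% of all genes passed. Plac1, an X-linked gene of trophoblast, stood at 0.640 and 4.86 FPKM in the assembled part against 745 and 293 FPKM in TSC alone (-7.24 ± 0.78, limma adjusted p = 0.000212). Prlr, the receptor for placental lactogens, stood at 0.623 and 0.837 FPKM against 3.89 and 5.20 FPKM (-1.67 ± 0.30, limma adjusted p = 0.00296). Of the 11 spongiotrophoblast and glycogen cell genes, 2 were higher (Aldh1a3 and Mmp9) and 3 lower (Ascl2, Nrk and Phlda2), and of 8 tested syncytiotrophoblast genes 1 was higher (Ly6e) and 3 lower (Dlx3, Pparg and Tfeb). Of 12 trophoblast stem cell genes, 7 were higher and 1 lower, with a median of 2.40. Cdkn1c, the cell cycle inhibitor of giant cell endoreduplication, stood at 2.26 and 9.13 FPKM against 479.8 and 173 FPKM (-5.65 ± 0.69, limma adjusted p = 0.000348), and was 1 of 2 lower among 10 tested endocycle genes.

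The same lists were read for BMP4 in TSC alone. Of 12 stem cell genes 7 were higher and 1 lower in TSC alone with BMP4 than in TSC alone, and of 12 giant cell genes 1 was higher (Fosl1) and 4 lower (Ets2, Plac1, Prlr and Socs3), where 12.1% of all genes passed. None of the 11 spongiotrophoblast and glycogen cell genes passed (median -1.10). Both comparisons share the libraries of TSC alone. In the assembled TSC part with BMP4 against the assembled TSC part, where 0.5% of all genes passed, none of these lists had a member past the threshold.

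**Figure D3:**
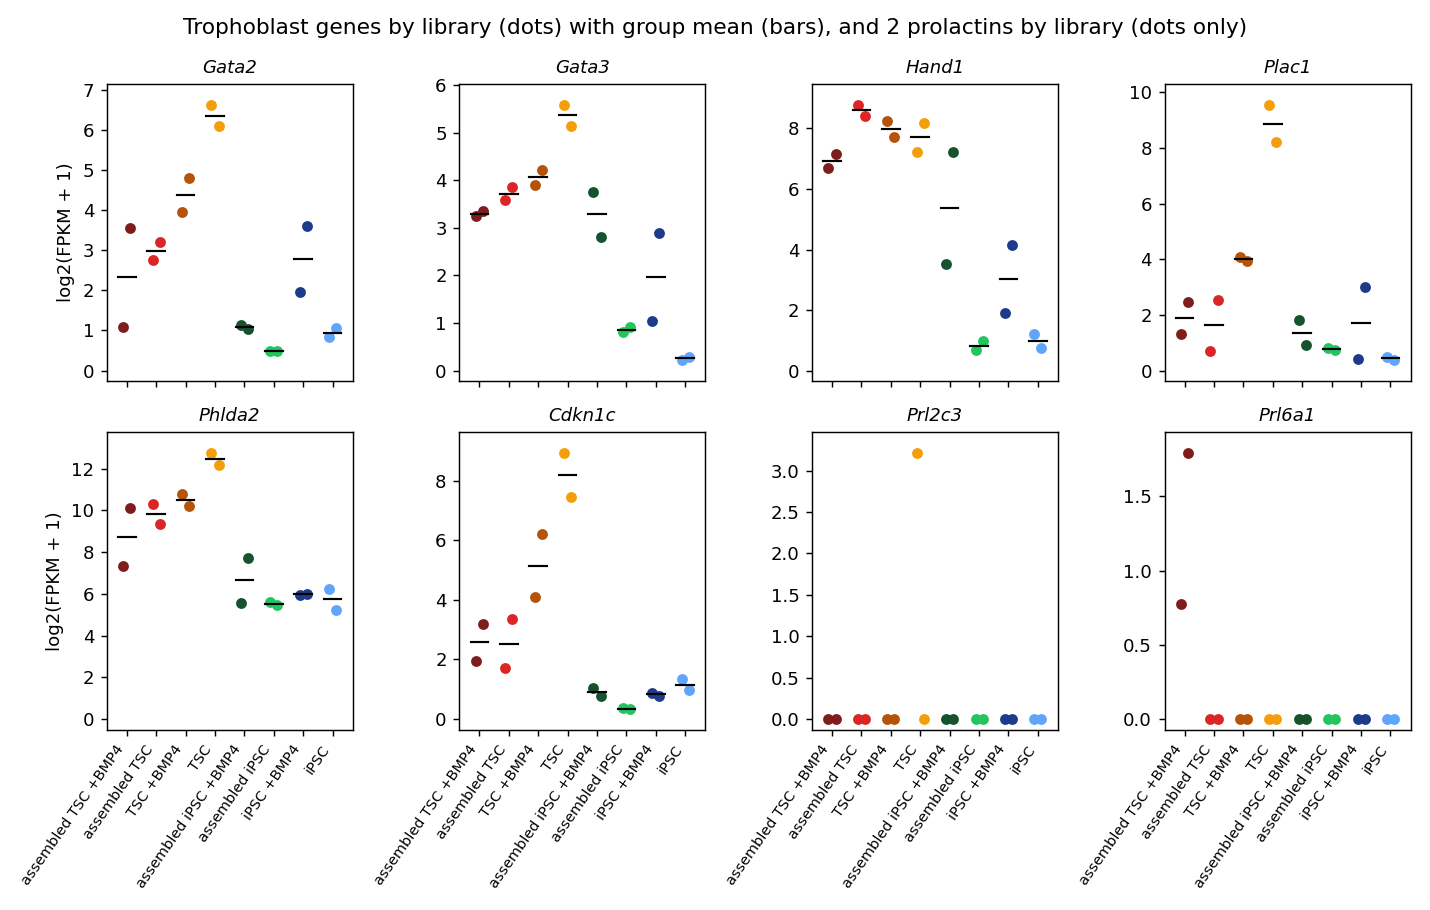
Level by library (dots) of 6 trophoblast genes, with the mean of log values per group (bars), and of Prl2c3 and Prl6a1 (dots only), in the 8 groups on a log2(FPKM + 1) axis. Gata2, Gata3, Plac1, Phlda2 and Cdkn1c are highest in TSC alone, whereas Prl2c3 is above 0 in 1 library of that group and Prl6a1 in the 2 libraries of the assembled TSC part with BMP4.

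The 14 general cathepsins contained almost all of the signal of the 78 members. They digest proteins in lysosomes, and several also act outside the cell. Of these, 9 reached 1 FPKM and were tested, which with Ceacam1 made 10 tested members. The other 5 stayed under 1 FPKM: Ctsg, a protease of neutrophils, was listed at 0 throughout, and Ctse, Ctsk, Ctss and Ctsw, proteases best known from immune or bone-resorbing cells, reached at most 0.664 FPKM. The summed level of the 14 was 348 and 427 FPKM in the assembled TSC part with BMP4, 429.7 and 375 FPKM in the assembled TSC part, 382 and 589 FPKM in TSC alone with BMP4, 578 and 628 FPKM in TSC alone, and 315 to 459 FPKM in the 8 libraries of iPSC origin. The sums of TSC alone were therefore above every library of iPSC origin, and those of the assembled TSC libraries lay within the range of iPSC.

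Ctsd and Ctsl made up most of this sum. Ctsd, the main aspartic protease of lysosomes, stood at 213 and 329 FPKM in TSC alone against 123 and 88.5 FPKM in iPSC alone (1.33 ± 0.32, limma adjusted p = 0.00598). The call was lost without replicate 2 of TSC alone (1.02, limma adjusted p = 0.0564) and without replicate 2 of iPSC alone (1.10, limma adjusted p = 0.0649). Of the 50-base stretches of Ctsd, 32.4% occur in Gm49369, an overlapping gene on the same strand that was not analysed here. In the other groups Ctsd lay between 133 and 230 FPKM in TSC origin and between 80.6 and 138 FPKM in iPSC origin.

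Ctsl, a lysosomal cysteine protease to which the placental cathepsins are related, was not called in any comparison. It stood at 108 and 158 FPKM in the assembled TSC part with BMP4, 139 and 98.6 FPKM in the assembled TSC part, 144 and 174 FPKM in TSC alone with BMP4, 90.3 and 93.7 FPKM in TSC alone, and 101 to 187 FPKM in the libraries of iPSC origin. The smallest adjusted p was for BMP4 in TSC alone (0.77 ± 0.24, limma adjusted p = 0.0575). The assembled iPSC part with and without BMP4 differed by 0.61 ± 0.24 (limma adjusted p = 0.549), and in both of these comparisons every library with BMP4 was above those without. Ctsl was at 90.3 FPKM or more in all 16 libraries, in which 7 of 9 placental cathepsins were listed at 0.

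**Figure D4:**
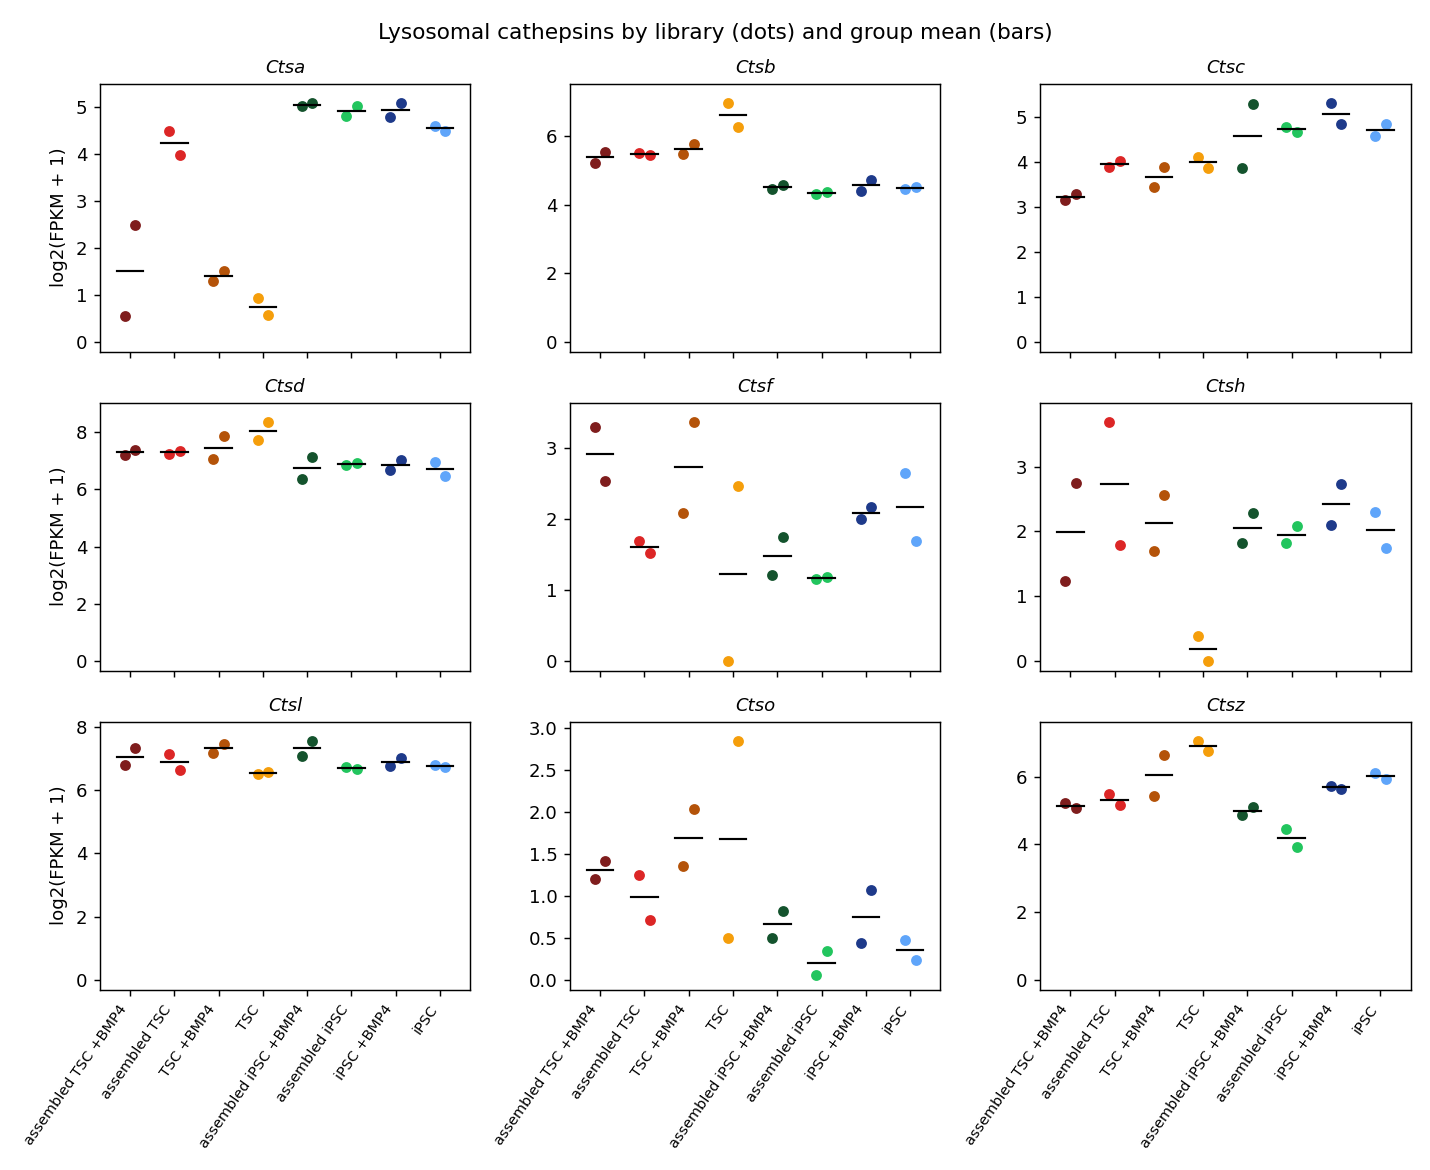
Level by library (dots) and mean of log values per group (bars) of the 9 tested cathepsins in the 8 groups, on log2(FPKM + 1) axes that start near 0. Ctsa is low in TSC alone, in TSC alone with BMP4 and in the assembled TSC part with BMP4, and Ctsb is higher in all 4 TSC groups than in the iPSC groups.

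Between lineages, Ctsb passed in all 4 comparisons and Ctsa in 3. In TSC alone against iPSC alone, 4 of the 10 tested members passed (Ctsb and Ctsd higher, Ctsa and Ctsh lower), a share close to the 36.4% of all genes. With BMP4, 3 of 10 passed between TSC and iPSC grown alone (Ctsb higher, Ctsa and Ctsc lower; 18.2% of all genes). Of the assembled parts, 2 of 10 passed without BMP4 (Ctsb and Ctsz higher; 16.9% of all genes) and 3 of 10 with BMP4 (Ctsb higher, Ctsa and Ctsc lower; 10.1% of all genes). Replicate 2 of iPSC alone with BMP4 had the higher trophoblast marker sum of that group. Without it, the differences in cells grown alone with BMP4 were -3.37 for Ctsa, 1.21 for Ctsb and -1.65 for Ctsc. Whether trophoblast RNA in that library bears on these differences was not tested.

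Ctsb, a lysosomal cysteine protease, was higher in TSC than in iPSC in all 4 settings. It stood at 36.4 and 45.3 FPKM in the assembled TSC part with BMP4, 44.7 and 43.2 FPKM in the assembled TSC part, 43.7 and 53.4 FPKM in TSC alone with BMP4 and 125 and 75.3 FPKM in TSC alone, against 18.7 to 25.3 FPKM in the 8 libraries of iPSC origin. The ranges of the lineages did not overlap. The difference was 2.14 ± 0.25 in cells grown alone (limma adjusted p = 5.94e-05), 1.06 ± 0.25 in cells grown alone with BMP4 (limma adjusted p = 0.0117), 1.15 ± 0.25 between the assembled parts (limma adjusted p = 0.0076) and 0.85 ± 0.25 between the assembled parts with BMP4 (limma adjusted p = 0.0472). The first held with each library left out, and the last was lost with any of its 4 libraries left out (limma adjusted p = 0.08 to 0.228). With BMP4, the call in cells grown alone was lost without replicate 2 of TSC (0.92, limma adjusted p = 0.0646) or replicate 1 of iPSC (0.91, limma adjusted p = 0.107). That between the untreated assembled parts was lost without replicate 1 of the TSC part (1.13, limma adjusted p = 0.0553) or of the iPSC part (1.11, limma adjusted p = 0.0543).

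Within TSC, Ctsb was highest in untreated cells grown alone. The assembled TSC part was lower than TSC alone by -1.12 ± 0.25 (limma adjusted p = 0.00879) and TSC alone with BMP4 was lower than TSC alone by -0.99 ± 0.25 (limma adjusted p = 0.0223). Without replicate 1 of TSC alone, its highest library, these were -0.76 (limma adjusted p = 0.0588) and -0.63 (limma adjusted p = 0.136), and the second was also lost without replicate 1 of TSC alone with BMP4 (-0.85, limma adjusted p = 0.134). Fdft1, a gene of cholesterol synthesis, overlaps Ctsb on the opposite strand, and 12.1% of the 50-base stretches of Ctsb occur in it. Fdft1 stood at 186 and 135 FPKM in the assembled TSC part against 37.5 and 108 FPKM in TSC alone (1.30 ± 0.37, limma adjusted p = 0.0293). The part of this overlap in the Ctsb values was not tested.

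Ctsa, a serine carboxypeptidase that also protects neuraminidase and beta-galactosidase in the lysosome, had the widest range of the cathepsins on the log2(FPKM + 1) scale. It stood at 0.463 and 4.62 FPKM in the assembled TSC part with BMP4, 21.4 and 14.7 FPKM in the assembled TSC part, 1.46 and 1.85 FPKM in TSC alone with BMP4, and 0.907 and 0.485 FPKM in TSC alone. In iPSC it stood at 31.4 and 32.7 FPKM in the assembled part with BMP4, 27.0 and 31.6 FPKM in the assembled part, 26.5 and 33.0 FPKM in iPSC alone with BMP4, and 23.3 and 21.6 FPKM in iPSC alone. All 8 libraries of iPSC origin were thus above 21 FPKM, and among TSC the assembled part without BMP4 alone came near them.

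Ctsa was lower in TSC alone than in iPSC alone by -3.80 ± 0.46 (limma adjusted p = 7.73e-05). With BMP4 the difference was -3.53 ± 0.46 both in cells grown alone (limma adjusted p = 0.00039) and between the assembled parts (limma adjusted p = 0.000694). These 3 calls held with each library left out; the last missed the threshold in a fit of only its 2 groups (limma adjusted p = 0.0582). Between the assembled parts without BMP4 the difference was -0.69 ± 0.46 and did not pass (limma adjusted p = 0.346), although the libraries did not overlap.

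Among TSC, Ctsa was higher in the assembled part than in TSC alone by 3.48 ± 0.46 (limma adjusted p = 0.000579), and this held with each library left out (3.23 to 3.73). With BMP4, Ctsa was lower in the assembled part (-2.71 ± 0.46, limma adjusted p = 0.0201) and the difference in TSC alone did not pass (0.65 ± 0.46, limma adjusted p = 0.392); the difference between these effects was -3.37 ± 0.65 (limma adjusted p = 0.0281). The -2.71 was lost without replicate 1 of the assembled TSC part (-2.46, limma adjusted p = 0.169), without replicate 2 of it (-2.96, limma adjusted p = 0.0834) and without replicate 1 of the assembled TSC part with BMP4 (-1.74, limma adjusted p = 0.112). The difference of effects was lost without replicate 1 of the assembled TSC part (-3.11, limma adjusted p = 0.116), replicate 1 of TSC alone with BMP4 (-3.47, limma adjusted p = 0.0839) or replicate 2 of TSC alone (-3.18, limma adjusted p = 0.0503).

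The high Ctsa of the assembled TSC part was present in both of its libraries. In replicate 1, with the higher Ctsa, Pou5f1 stood at 2.33 FPKM, Tdgf1 at 0.261 FPKM and Dppa5a at 8.73 FPKM, and in replicate 2 they stood at 13.2, 22.5 and 499 FPKM. Utf1 ran the other way, at 724 FPKM in replicate 1 and 542 FPKM in replicate 2. Whether RNA of iPSC in these libraries bears on Ctsa was not tested. With both replicate 2 of this group and replicate 2 of the BMP4-treated assembled iPSC part left out, the assembly difference in Ctsa was 3.73 (limma adjusted p = 0.00645), the BMP4 difference in the assembled TSC part was -2.96 (limma adjusted p = 0.108) and the difference of BMP4 effects was -3.62 (limma adjusted p = 0.0501).

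Ctsa overlaps Pltp, a phospholipid transfer protein gene, and Neurl2 on the opposite strand, and the Smart-seq2 protocol does not mark strand. Pltp stood at 18.7 and 68.2 FPKM in the assembled TSC part with BMP4, 44.6 and 39.2 FPKM in the assembled TSC part, 42.8 and 76.6 FPKM in TSC alone with BMP4 and 96.4 and 109 FPKM in TSC alone. It was highest in TSC alone, and assembly gave a difference of -1.28 ± 0.57 (limma adjusted p = 0.135). Neurl2 stayed at 3.14 FPKM or less. The part of this overlap in the Ctsa values was not tested; the shared stretches are 11.6% of those of Ctsa.

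**Figure D5:**
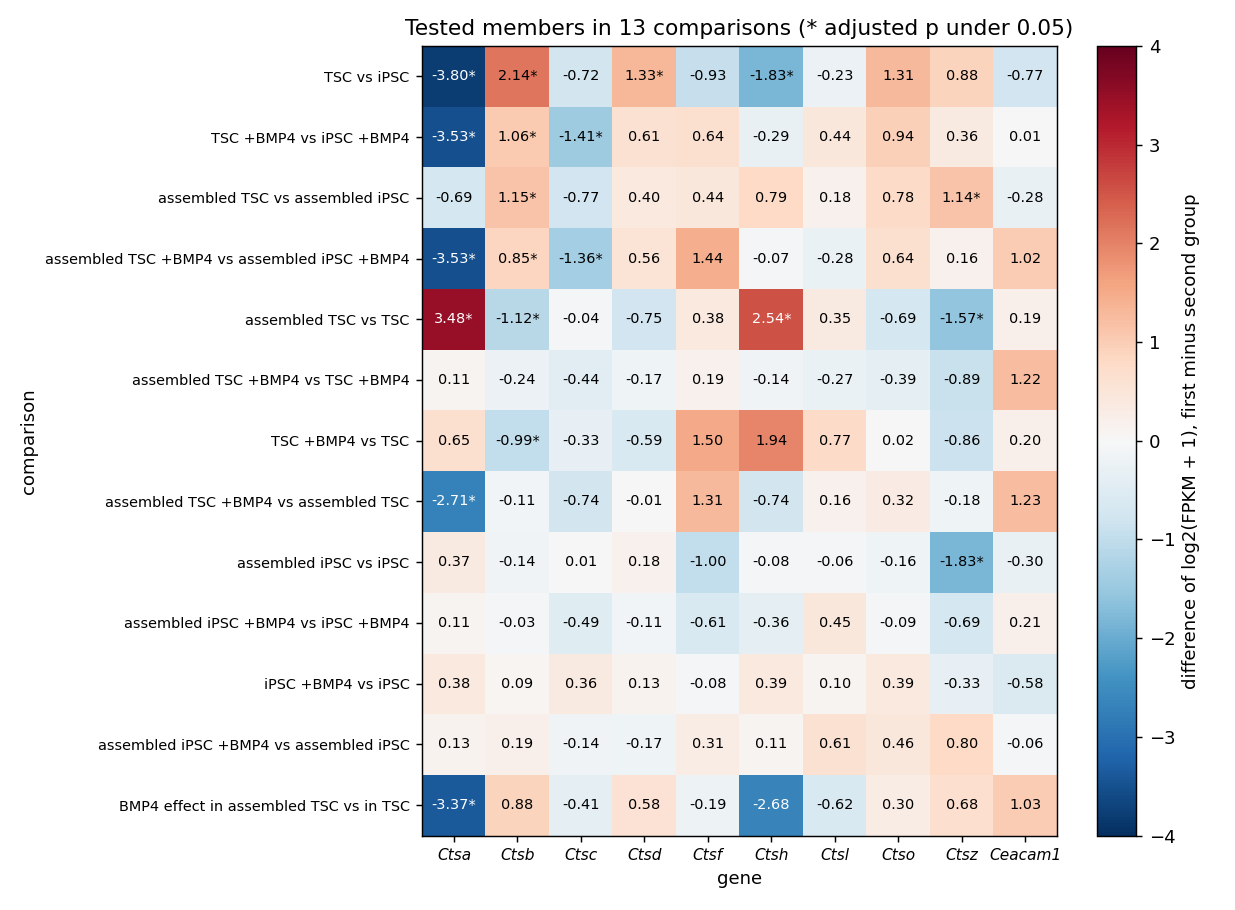
Difference of log2(FPKM + 1) of the 10 tested members (columns) in 13 comparisons (rows), given as the group named first minus the group named second, with an asterisk where the limma adjusted p was under 0.05. Ctsa reaches -3.80 in TSC against iPSC and 3.48 in the assembled TSC part against TSC alone, and no member is marked for BMP4 in iPSC.

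Ctsh, a cysteine aminopeptidase, was lowest in TSC alone. It stood at 1.36 and 5.73 FPKM in the assembled TSC part with BMP4, 11.9 and 2.45 FPKM in the assembled TSC part, 2.24 and 4.93 FPKM in TSC alone with BMP4, 0.307 and 0 FPKM in TSC alone, and 2.36 to 5.66 FPKM in the libraries of iPSC origin. TSC alone was the single group with a library under 1 FPKM, and both of its libraries were. It was lower than iPSC alone by -1.83 ± 0.60 (limma adjusted p = 0.0297), and the assembled TSC part was higher than TSC alone by 2.54 ± 0.60 (limma adjusted p = 0.0121). The lineage call was lost with any of its 4 libraries left out (-2.11 to -1.56, limma adjusted p = 0.0588 to 0.156). The assembly call was lost without replicate 1 of the assembled TSC part (1.59, limma adjusted p = 0.121) or replicate 2 of TSC alone (2.35, limma adjusted p = 0.0582).

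Assembly in TSC called 4 of 10 members (Ctsa and Ctsh higher, Ctsb and Ctsz lower), against 19.2% of all genes. With BMP4 in both groups, the assembled TSC part and TSC alone differed in none of the 10 members by limma, where 0.298% of all genes passed. At an unadjusted p under 0.05 by limma, 2 of the 10 were found, a threshold at which the share of all genes was not computed. BMP4 called Ctsb in TSC alone (1 of 10; 12.1% of all genes) and Ctsa in the assembled TSC part (1 of 10; 0.5% of all genes). The interaction of BMP4 with assembly in TSC called Ctsa (1 of 10; 1.75% of all genes).

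Ctsz, a carboxypeptidase of the cysteine class, was lower in assembled cells of both lineages. It stood at 36.0 and 32.8 FPKM in the assembled TSC part with BMP4, 43.7 and 34.7 FPKM in the assembled TSC part, 42.2 and 98.8 FPKM in TSC alone with BMP4 and 132 and 106 FPKM in TSC alone. In iPSC it stood at 28.3 and 33.3 FPKM in the assembled part with BMP4, 20.7 and 14.2 FPKM in the assembled part, 52.2 and 48.4 FPKM in iPSC alone with BMP4 and 68.2 and 59.3 FPKM in iPSC alone. Within each lineage and without BMP4, no assembled library overlapped the cells grown alone.

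The assembled TSC part was lower in Ctsz than TSC alone by -1.57 ± 0.33 (limma adjusted p = 0.00676), and the assembled iPSC part was lower than iPSC alone by -1.83 ± 0.33 (limma adjusted p = 0.00693). The first was lost without replicate 2 of the assembled TSC part (-1.41, limma adjusted p = 0.052). The second was lost without replicate 1 of iPSC alone (-1.73, limma adjusted p = 0.0598), replicate 2 of iPSC alone (-1.93, limma adjusted p = 0.0566) or replicate 2 of the assembled iPSC part (-1.57, limma adjusted p = 0.0899). With BMP4 the differences were -0.89 ± 0.33 in TSC (limma adjusted p = 0.24) and -0.69 ± 0.33 in iPSC (limma adjusted p = 0.21), and did not pass. The first of these passed without replicate 1 of TSC alone with BMP4 (-1.50, limma adjusted p = 0.0295), and BMP4 in TSC alone (-0.86 ± 0.33, limma adjusted p = 0.109) passed without replicate 2 of that group (-1.46, limma adjusted p = 0.00934). The assembled TSC part exceeded the assembled iPSC part by 1.14 ± 0.33 (limma adjusted p = 0.0321), a call lost with any of the 4 libraries left out (0.88 to 1.39, limma adjusted p = 0.0546 to 0.221).

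In iPSC, Ctsz in the assembled part was the only member called in any of the 4 comparisons within the lineage. Assembly without BMP4 called 1 of 10 members (11.8% of all genes) and with BMP4 none (5.72% of all genes). BMP4 called none in iPSC alone (0.0597% of all genes) and none in the assembled iPSC part (0.00746% of all genes). These shares of all genes are at an adjusted p under 0.05. By limma at an unadjusted p under 0.05, 0 members were found for assembly with BMP4. For BMP4, 0 were found in iPSC alone and 2 in the assembled iPSC part. The share of all genes at that unadjusted threshold was not computed.

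Ctsc, the dipeptidyl peptidase that activates granule serine proteases, was called lower in TSC than in iPSC where BMP4 was present. It stood at 7.84 and 8.80 FPKM in the assembled TSC part with BMP4 against 13.7 and 37.96 FPKM in the assembled iPSC part with BMP4 (-1.36 ± 0.37, limma adjusted p = 0.0345), and at 9.84 and 13.7 FPKM in TSC alone with BMP4 against 38.7 and 27.5 FPKM in iPSC alone with BMP4 (-1.41 ± 0.37, limma adjusted p = 0.0194). The first was lost without replicate 2 of the BMP4-treated assembled iPSC part (-0.66, limma adjusted p = 0.194), replicate 1 of the assembled TSC part with BMP4 (-1.29, limma adjusted p = 0.156) or its replicate 2 (-1.44, limma adjusted p = 0.107). The second was lost without replicate 1 of iPSC alone with BMP4 (-1.18, limma adjusted p = 0.149) or replicate 1 of TSC alone with BMP4 (-1.19, limma adjusted p = 0.116). Without BMP4 the differences were -0.77 ± 0.37 between the assembled parts (limma adjusted p = 0.179) and -0.72 ± 0.37 in cells grown alone (limma adjusted p = 0.145). These did not pass, although the libraries did not overlap in either comparison. Whether the lineage difference itself changed with BMP4 was not tested.

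Ctsf and Ctso, cysteine cathepsins of low level in these cells, were not called in any comparison. Ctsf stood at 8.82 and 4.82 FPKM in the assembled TSC part with BMP4, 2.24 and 1.88 FPKM in the assembled TSC part, 3.27 and 9.36 FPKM in TSC alone with BMP4, 0 and 4.52 FPKM in TSC alone and 1.24 to 5.25 FPKM in the libraries of iPSC origin. Ctso reached 6.18 FPKM in replicate 2 of TSC alone, with 0.420 FPKM in replicate 1, and 0.0420 to 1.10 FPKM in the libraries of iPSC origin. Both genes differed widely between the replicates of TSC alone. Without replicate 1 of that group the Ctso difference from iPSC alone passed (2.48, limma adjusted p = 0.00104, against 1.31 and 0.0861 with all libraries), and without replicate 2 the Ctsf difference of TSC alone with BMP4 from TSC alone passed (2.73, limma adjusted p = 0.0115, against 0.154 with all libraries).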

How the data were processed

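The table deposited by the authors holds FPKM, fragments scaled by transcript length and mapping depth, with 1 column for each library and 31663 entries. CASAVA, TopHat2 and the builds mm9 and hg19 are named, per the submitters' processing notes. Which program made the FPKM values, and with what annotation, is not given in the sources used here. Depth is therefore unknown, and no value carries a counting interval. Values were taken as log2(FPKM + 1), for the 13406 entries that reached 1 FPKM in 2 or more libraries. The model was made in R 4.3.3 with limma 3.58.1 (8 group means, 16 libraries, 8 residual degrees of freedom, eBayes with trend). Tests were two-sided in 13 comparisons, with Benjamini-Hochberg adjustment over all genes of each and a threshold of 0.05; differences are given ± SE. The scale understates folds of low genes. Whether libraries of 1 group are separate cultures is not stated in the labels, and p-values measure only their spread, which may be technical. The fit was tested on simulated data.

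The members and lists were chosen with earlier results of these data known. Values were given for members with a group mean of at least 5 FPKM or past the threshold and for 14 listed by name; Prl2c3, Prl6a1, Ctsll3, Cts3, Ctso, Ceacam1, Ceacam2, Psg16 and Psg19 were chosen after their values were seen. Cdt1, listed among the endocycle genes, was not analysed here. Shared 50-base stretches and overlaps came from GENCODE vM21, and promoters, found for 65 of 78 members, from RefSeq; their build is not that of the expression table. The alternatives tried were quantile normalization, a pseudocount of 0.1, a fit without the filter, a replicate block, a fit of only the groups compared, leaving out each library and leaving out both replicate 2 of the assembled TSC part and replicate 2 of the BMP4-treated assembled iPSC part. Other steps used Python 3.11.15 with pandas 2.3.3, numpy 2.4.6 and, for figures, matplotlib 3.10.9.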

Additional observations from a re-analysis of the deposited data

Results flagged for a closer look

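The effect of BMP4 on Ctsa differed between the assembled TSC part and TSC alone by the interaction term (-3.37 ± 0.65 on the log2(FPKM + 1) scale, limma adjusted p = 0.0281). BMP4 gave -2.71 ± 0.46 in the assembled TSC part and 0.65 ± 0.46 in TSC alone. The interaction term ran from -4.34 to -2.39 with each library left out, and its call did not hold in every such fit. The call was also lost without the filter and in a fit of only the groups compared. With 2 libraries a group, no library could be checked for standing apart from its own group.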

How the results depend on the processing

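The alternatives were run for the numbers of members called and for member differences with a limma unadjusted p under 0.05. None of these differences changed direction. The gene lists and the genes outside the members were not refitted. Among the numbers of members called, a pseudocount of 0.1 gave 2 for BMP4 in TSC alone and 0 for BMP4 in the assembled TSC part. Without the filter on low values, where more genes are tested, the number was 1 between the assembled parts and 0 for BMP4 in TSC alone, for BMP4 in the assembled TSC part and for the interaction. Quantile normalization gave 1 between the assembled parts. A fit of only the groups compared, with fewer libraries, gave 0 between the assembled parts with BMP4, 0 for BMP4 in the assembled TSC part and 0 for the interaction. Without replicate 2 of the assembled TSC part and replicate 2 of the BMP4-treated assembled iPSC part the numbers were 1 between the assembled parts, 1 between them with BMP4, 2 for assembly in TSC, 0 for BMP4 in the assembled TSC part and 0 for the interaction. With each library left out in turn, the numbers ran from 2 to 4 for TSC against iPSC, 1 to 3 with BMP4, 0 to 1 between the assembled parts, 1 to 2 between them with BMP4, 3 to 4 for assembly in TSC, 0 to 1 for it with BMP4, 0 to 2 for BMP4 in TSC alone, 0 to 1 for BMP4 in the assembled TSC part, 0 to 1 for the interaction, 0 to 1 for assembly in iPSC and the same with BMP4, and 0 to 0 for BMP4 in iPSC alone and in the assembled iPSC part. The cause of these changes was not tested beyond the loss of libraries or the added genes. The share of all genes called in each alternative is not given here, so the changes cannot be read as particular to the members. A lone library left in a group was assumed to vary like the other groups. Ctsa in TSC against iPSC, alone with and without BMP4, and in assembled against lone TSC passed in every alternative run; Ctsa between the assembled parts with BMP4 was lost in the fit of only those groups (-3.53, limma adjusted p = 0.0582).

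With a block for the replicate number, Ctsb between the assembled parts with BMP4 was lost (0.85, limma adjusted p = 0.0601), which left 2 members called there in place of 3; no other call changed. Replicate numbers shared only a number: over 28 pairs of groups the correlation of same-numbered deviations ran from -0.19 to 0.12 (median -0.02), with 2 over 0.1. Unknown depth limits what the zeros of the placental families can show.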
